A study of Homo sapiens with 12 samples.

Results

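MDA-MB-231 is an established human breast cancer line that lacks the oestrogen receptor and is usually placed in the basal B or claudin-low class of breast cancer lines. The values below describe its control transcriptome alone. The members were chosen by label: the 3 libraries labelled control, of the 12 libraries in 4 groups that make up the series. The other 9 libraries, in which SIRT1, IGF2BP2 or both were knocked down, enter no value here.

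All control cells carried a sham short hairpin RNA, delivered by lentivirus with Polybrene at 8 µg/mL; the virus had been packaged in HEK-293T, a line from human embryonic kidney. They were kept in RPMI-1640 with 10% serum under puromycin at 2.0 µg/mL, and the labels give their treatment as untreated. So these are infected and drug-selected cells, not unmanipulated ones. Total RNA was taken with Trizol from frozen cells, and 1 µg per library went into an NEB Ultra II preparation. The design text counts 3 independent analyses per condition. The sources used here do not say whether these are separate infections, and the spread below is that between the libraries, which may be partly technical.

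Basal-like breast cancers lack the hormone receptors that drive luminal tumours, and many express growth factor receptors such as EGFR. In claudin-low lines, genes that hold epithelial sheets together (E-cadherin and several claudins) are low, while vimentin and other mesenchymal genes are high. Lines of this kind are widely used to study invasion and metastasis.

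Levels between genes are given as TPM, a measure of transcript abundance that divides each gene's reads by its exon length and scales the result to a common total over all annotated genes. The exon length is the union of all annotated exons of a gene, and any order between genes depends on it. Ranges said to overlap or not overlap cover the spread between libraries only, not that choice of length. Each set of values in the text is for replicates 1, 2 and 3, in that order, and errors are SDs over n = 3 libraries. A gene was called expressed at 1 TPM or more in every control library, and silent under 0.1 TPM in every one. Values between the libraries for a single gene are also given as normalised read counts, which the authors scaled by library.

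The libraries held 21002454, 21570882 and 21303257 reads assigned to genes, and protein-coding genes took 94.6% ± 0.127 of them. On the per-length scale short RNAs weigh more, and protein-coding genes took 63.4%, 59.9% and 59.5% of the total. This scaling places TPM values of replicate 1 slightly above those of the other libraries for most genes. Mitochondrially encoded genes took 2.14% ± 0.131 of reads.

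Replicate 1 stood apart from the other libraries among genes with few reads. It had at least 1 read for 37196 genes, against 29487 and 28909 in replicates 2 and 3, at nearly the same depth. Genes with exactly 1 read numbered 8130, 4595 and 4410. Of 26399 genes at 0 in both other libraries (chromosome Y and mitochondrial genes left out), 7646 had a read in replicate 1. The corresponding numbers were 1266 of 20019 for replicate 2 and 1094 of 19847 for replicate 3. Such reads came to 0.477, 0.118 and 0.102 per kilobase of exon in replicates 1, 2 and 3. Those of replicate 1 numbered at most 20 in a gene and lay between 0.367 and 0.436 per kilobase in protein-coding genes of every length class. Olfactory receptor genes, a family of smell receptors examined after the values were seen, had a read in 190, 34 and 26 of 381 genes. The excess was at low levels. Summed over genes with a mean of 1 to 3 normalised counts, replicate 1 was at 1.71 times the mean of the other libraries, and over genes with a mean of 100 to 1000 at 0.982 times. Counts of silent genes are therefore also given without replicate 1 where they differ.

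**Figure D1:**
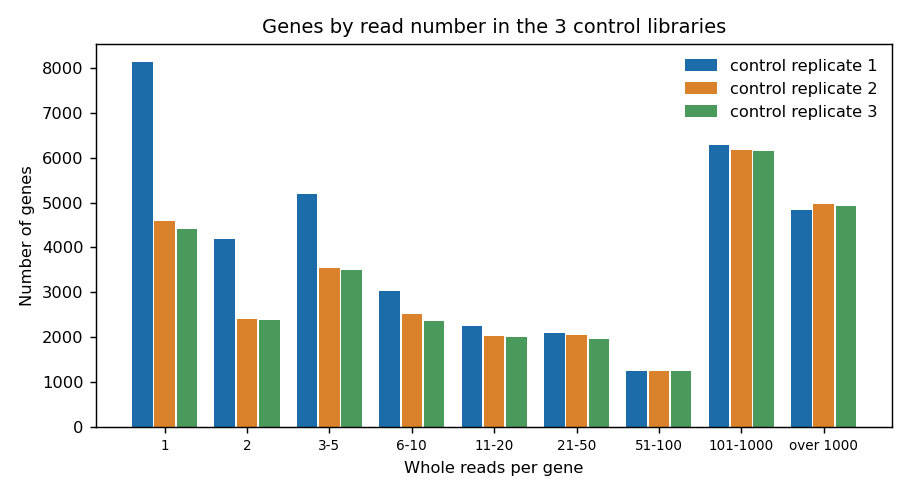
Number of genes (vertical axis) by the number of whole reads assigned to the gene (horizontal axis) in control replicates 1, 2 and 3. Replicate 1 has 8130 genes with a single read against 4595 and 4410, and the bars are nearly level from the class of 21 to 50 reads upward.

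Of 19861 protein-coding genes with an exon length, 11610 (58.5%) were expressed, 4057 (20.4%) were silent and 4194 lay between. Without replicate 1, 11643 were expressed and 5315 silent, so the silent count moved with that library more than the expressed count did. No read was found in any library for 1930 protein-coding genes, and in replicates 2 and 3 for 3837. The silent and no-read counts include 17 genes of the pseudoautosomal regions, whose 0 reads do not mark them as silent (see cytokine receptors). By mean level, 5428 genes were under 0.1 TPM and 2616 between 0.1 and 1. A further 3855 lay between 1 and 10 TPM, 6909 between 10 and 100, and 1004 between 100 and 1000. The 49 protein-coding genes at 1000 TPM or more took 7.82% of all reads.

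Reads were spread over many genes. The 10 genes with the most reads took 6.16% ± 0.0386 of a library, the top 100 took 18.4% ± 0.189 and the top 1000 took 49.4% ± 0.251. All 13 mitochondrially encoded protein genes were among those above 1000 TPM, led by MT-CO3 at 11570.0, 10127 and 11426 TPM, a subunit of cytochrome c oxidase. MT-ND6, a complex I subunit and the lowest of the 13, was at 1204, 1120.2 and 1063 TPM. For MT-CO3, MT-CO1 and MT-CO2 the lowest value was that of replicate 2, which also had the smallest mitochondrial share of reads (1.99% against 2.20% and 2.22%).

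Among nuclear protein-coding genes, 36 reached 1000 TPM. The highest was TMSB10, thymosin beta 10, a small protein that binds actin monomers, at 6220.1, 5322 and 5586 TPM. S100A6, a calcium-binding protein, followed at 5907, 5141 and 5651 TPM, then FTL, the ferritin light chain that stores iron, at 5969, 5051 and 5529 TPM. ACTB, cytoplasmic beta-actin, was at 5508, 5207 and 5076 TPM. The ranges of these genes overlapped, so their order is not fixed by 3 libraries. ACTG1, gamma-actin, was lower at 3845, 3596 and 3601 TPM, outside the range of all of them. The order also depends on the exon length used, which was 496 bases for TMSB10 and 3519 for ACTB. By reads summed over the libraries ACTB was far higher, at 433964 against 66282 for TMSB10. The ranking was not repeated with another length.

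TMSB4X, thymosin beta 4 and another actin-binding peptide, was at 2387, 2222 and 2181 TPM. The linker histone genes H1-2 (2938 ± 119 TPM) and H1-4 (2142 ± 117 TPM) and the chromatin protein gene HMGA1 (2172 ± 87.5 TPM) were also among the first 10. The translation factor gene EEF1A1 was at 2540.0 ± 136 TPM. The rest of the 20 highest ran from HSPA5, the main chaperone of the endoplasmic reticulum (2088 ± 97.6 TPM), to ENO1, the glycolytic enzyme enolase 1 (1471 ± 44.7 TPM). Between them lay the insulin-like growth factor binding protein IGFBP4 (1981 ± 102 TPM), the chaperone HSP90AB1 (1914 ± 49.7 TPM), the galectin LGALS1 (1911 ± 72.7 TPM) and CCN1, a matricellular protein and known YAP target (1503 ± 53.2 TPM). CLIC1, EEF2, RPS18 and RPL7A completed the 20. Of the 100 highest, 24 encoded ribosomal proteins and 9 histones, and their median exon length was 2454 bases against 4232 over all protein-coding genes. Histone and ribosomal protein genes have near-identical copies, so their reads may be split or lost.

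**Figure D2:**
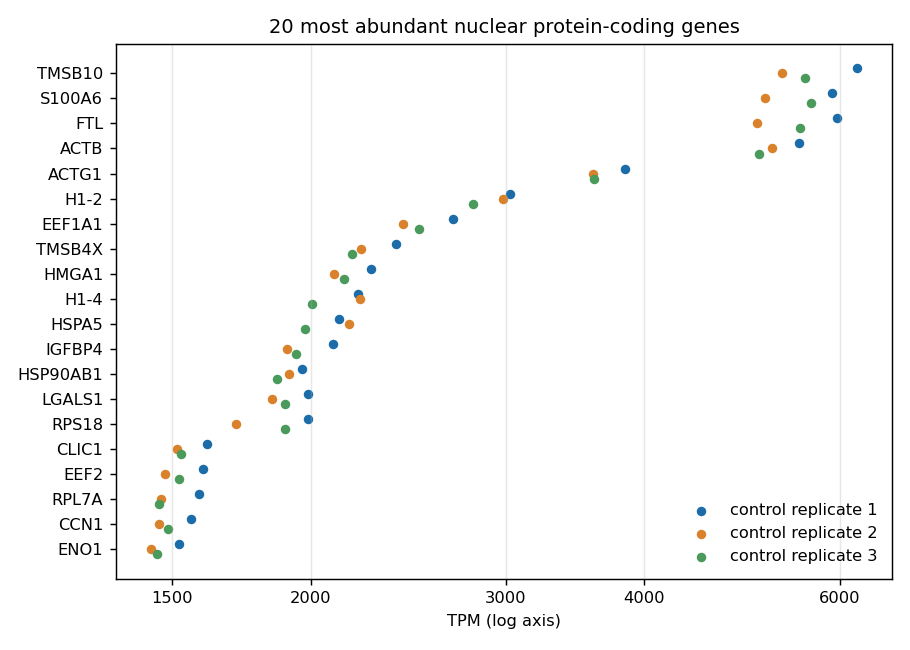
TPM on a log axis for the 20 nuclear protein-coding genes of highest mean, 1 point per control library. The first 4 genes overlap between 5051 and 6220 TPM, and replicate 1 holds the highest value for every gene except H1-4 and HSPA5.

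The highest thymosin is shown beside its paralog because the pair is alike in function and in sequence, and the per-gene counts can be read as separate only if reads can tell them apart. Both coding sequences are 132 bases long over 2 coding exons. They differ at 37 positions, an identity of 72.0%, and the longest identical run is 10 bases. TMSB10 lies on the plus strand with its coding part within chr2:84906018-84906420 and TMSB4X on the plus strand with its coding part within chrX:12976262-12976808 (GRCh38, GENCODE 29). Capitals mark the bases that differ, and introns are left out.
TMSB10: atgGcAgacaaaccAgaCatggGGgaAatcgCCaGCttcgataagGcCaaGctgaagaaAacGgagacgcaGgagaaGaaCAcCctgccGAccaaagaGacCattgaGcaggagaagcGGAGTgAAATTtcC
TMSB4X: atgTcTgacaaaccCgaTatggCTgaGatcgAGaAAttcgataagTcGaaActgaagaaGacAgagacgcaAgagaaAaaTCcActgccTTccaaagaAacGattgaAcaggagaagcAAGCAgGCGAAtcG
The differing positions are spread over the whole length of both sequences, with a cluster at the 3′ end.

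Cell type markers were read first, as a check of the label. Of 15 luminal epithelial markers 10 were expressed and 3 silent, of 15 basal markers 7 and 3, and of 15 mesenchymal or claudin-low markers 13 and 1. Without replicate 1 the silent markers numbered 4, 4 and 1. The background over all protein-coding genes was 58.5% expressed and 20.4% silent, and without replicate 1 it was 5315 silent of 19861. The receptors that define hormone-responsive cells were near the floor. ESR1, the oestrogen receptor, had 8, 7 and 4 reads (0.0777, 0.0633 and 0.0359 TPM), and PGR, the progesterone receptor, 1, 0 and 1 reads. Both were silent. FOXA1, a pioneer factor that works with ESR1, had a level of 0.169, 0 and 0 TPM, above 0 in replicate 1 alone.

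Simple-epithelial keratins were nevertheless abundant. KRT19 was at 518, 499.9 and 463 TPM, KRT18 at 363, 332 and 337 TPM and KRT8 at 249.8, 233 and 231 TPM, and KRT8 and KRT18 are known to pair into filaments. The TPM ranges of KRT19, KRT18 and KRT8 did not overlap, but their order rests on exon lengths of 2336, 3218 and 6881 bases. By reads KRT8 was the highest of them, with 12777, 12798 and 12777. KRT19 had 8990, 9321 and 8695 reads and KRT18 8678, 8518 and 8732. The basal keratins KRT5, KRT6A, KRT6B, KRT14 and KRT17 were under 1 TPM in every library. KRT5 and KRT6B had 0 reads in every library, which with 3 reads over the 3 libraries as the limit allows up to 0.0298 TPM for KRT5. KRT14 was at 0.177, 0.0549 and 0 TPM and KRT17 at 0.473, 0.4 and 0.358 TPM. Some basal surface markers were high all the same: ITGB4 at 275, 242 and 257 TPM and its partner ITGA6 at 202, 195 and 192 TPM. EGFR was at 91.5, 85.8 and 86.3 TPM. CDH3, the P-cadherin gene of the same list, was low at 0.237, 0.141 and 0.259 TPM. Other basal markers also differed: SFN was at 175, 166 and 163 TPM and ACTA2 at 1.31, 1.98 and 1.63 TPM. TRIM29 was at 0.856, 0.687 and 0.779 TPM. TP63, the factor that maintains basal cells, lay at the threshold with 1.26, 0.992 and 0.734 TPM.

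The mesenchymal markers had the highest summed level of the lists, 3968, 3770.0 and 3794 TPM. AXL, a receptor tyrosine kinase tied to invasion, was at 1214, 1191 and 1158 TPM, S100A4 at 763, 702 and 714 TPM, the intermediate filament gene VIM at 546, 531 and 534 TPM, and CAV1, the coat protein of caveolae, at 515, 494 and 502 TPM. FN1, fibronectin, reached 154, 128 and 147 TPM and was lowest in replicate 2. The E-cadherin gene CDH1 (0.392, 0.325 and 0.242 TPM) and the N-cadherin gene CDH2 (0.462, 0.253 and 0.301 TPM) were both under 1 TPM in every library. TWIST1 had 0 reads in every library.

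Markers of other cell types were mostly low. In the fibroblast list 2 of 10 were expressed, PDGFRB (8.78, 7.74 and 8.19 TPM) and COL1A1 (3.12, 3.14 and 2.89 TPM), and PDGFRA, DCN, FAP and POSTN were silent. KDR (1.58, 1.32 and 1.36 TPM) was the 1 expressed gene of 8 endothelial markers. None of 10 immune and none of 6 adipocyte markers was expressed, and the summed level of each list was highest in replicate 1, at 2.91 and 1.75 TPM. PTPRC, which encodes the pan-leukocyte antigen CD45, had 6, 2 and 3 reads. The immune marker CD68 shares 81.7% of its exon length with another gene on the same strand, so its low value says little. For the virus packaging line, 0 of 9 markers were expressed and 8 were silent, 9 without replicate 1; their summed level was 0.511, 0.0798 and 0.0132 TPM. In bulk RNA, fewer cells of a type and less RNA per cell cannot be told apart.

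**Figure D3:**
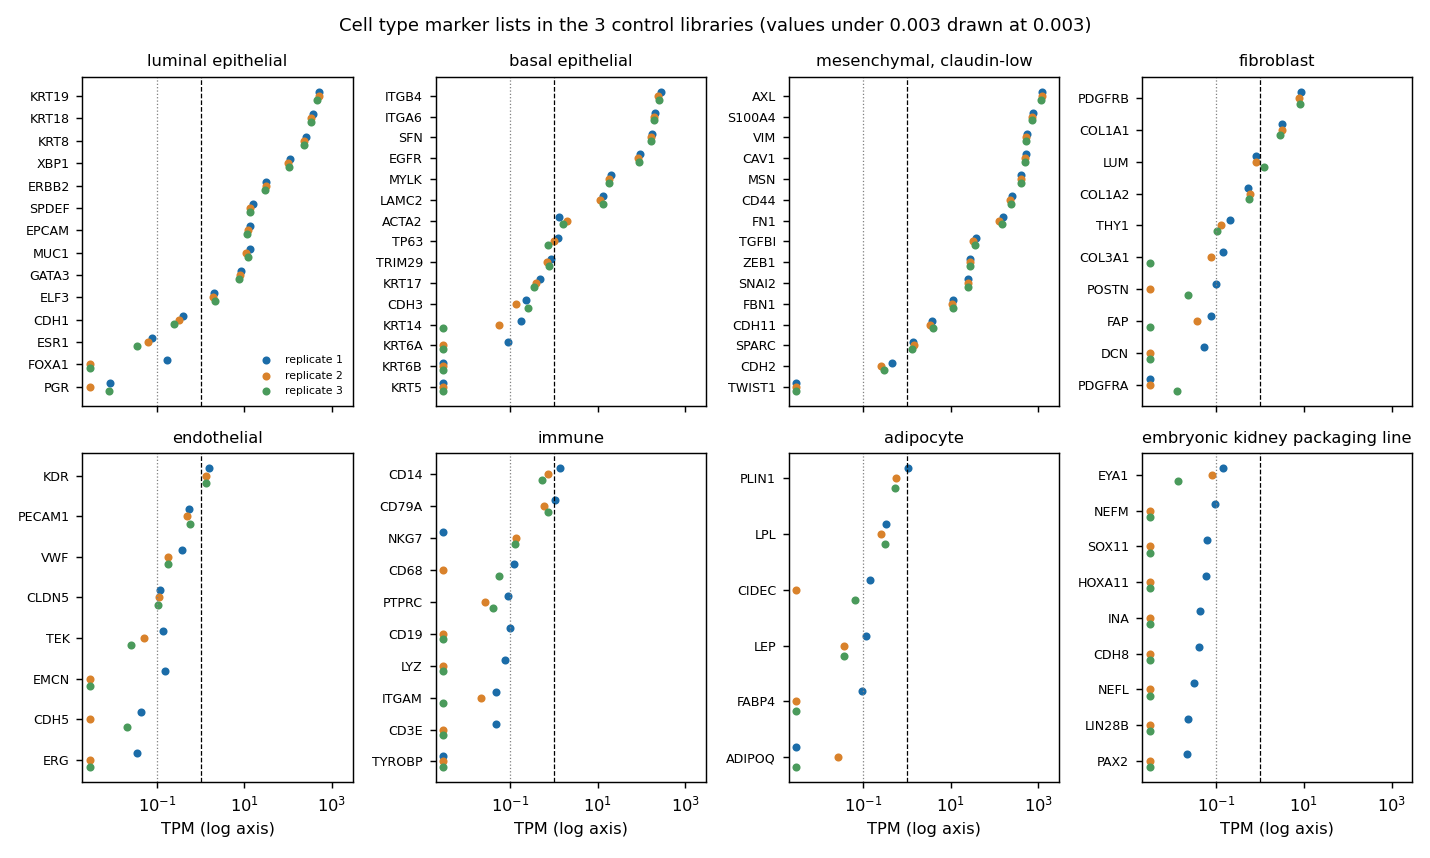
TPM on a log axis for genes of the 8 marker lists (1 luminal gene not drawn), 1 point per control library; the dashed line is 1 TPM and the dotted line 0.1 TPM, and values under 0.003 are drawn at 0.003. Keratins 8, 18 and 19, the basal genes ITGB4, ITGA6 and SFN, and several mesenchymal genes led by AXL lie at the right. Other mesenchymal genes lie lower, with TWIST1 at the left edge. The packaging line markers have points from replicate 1 with the other libraries mostly at the left edge.

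The 60 gene families hold 1106 matched members. Of these 586 (53.0%) were expressed, 240 silent and 280 between. By class, 163 of 319 receptors (51.1%), 65 of 162 adhesion genes (40.1%), 127 of 241 transcription factors (52.7%) and 180 of 273 metabolic genes (65.9%) were expressed, against 58.5% of all protein-coding genes. Silent members numbered 63 (19.7%), 48 (29.6%), 56 (23.2%) and 32 (11.7%), against 20.4% of all protein-coding genes. Without replicate 1 they numbered 91, 59, 77 and 44, against 5315 of 19861 protein-coding genes. Family counts without replicate 1 below are read beside that larger background. Family members were listed by hand, so these shares describe the lists and are read beside the background, not tested against it.

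**Figure D4:**
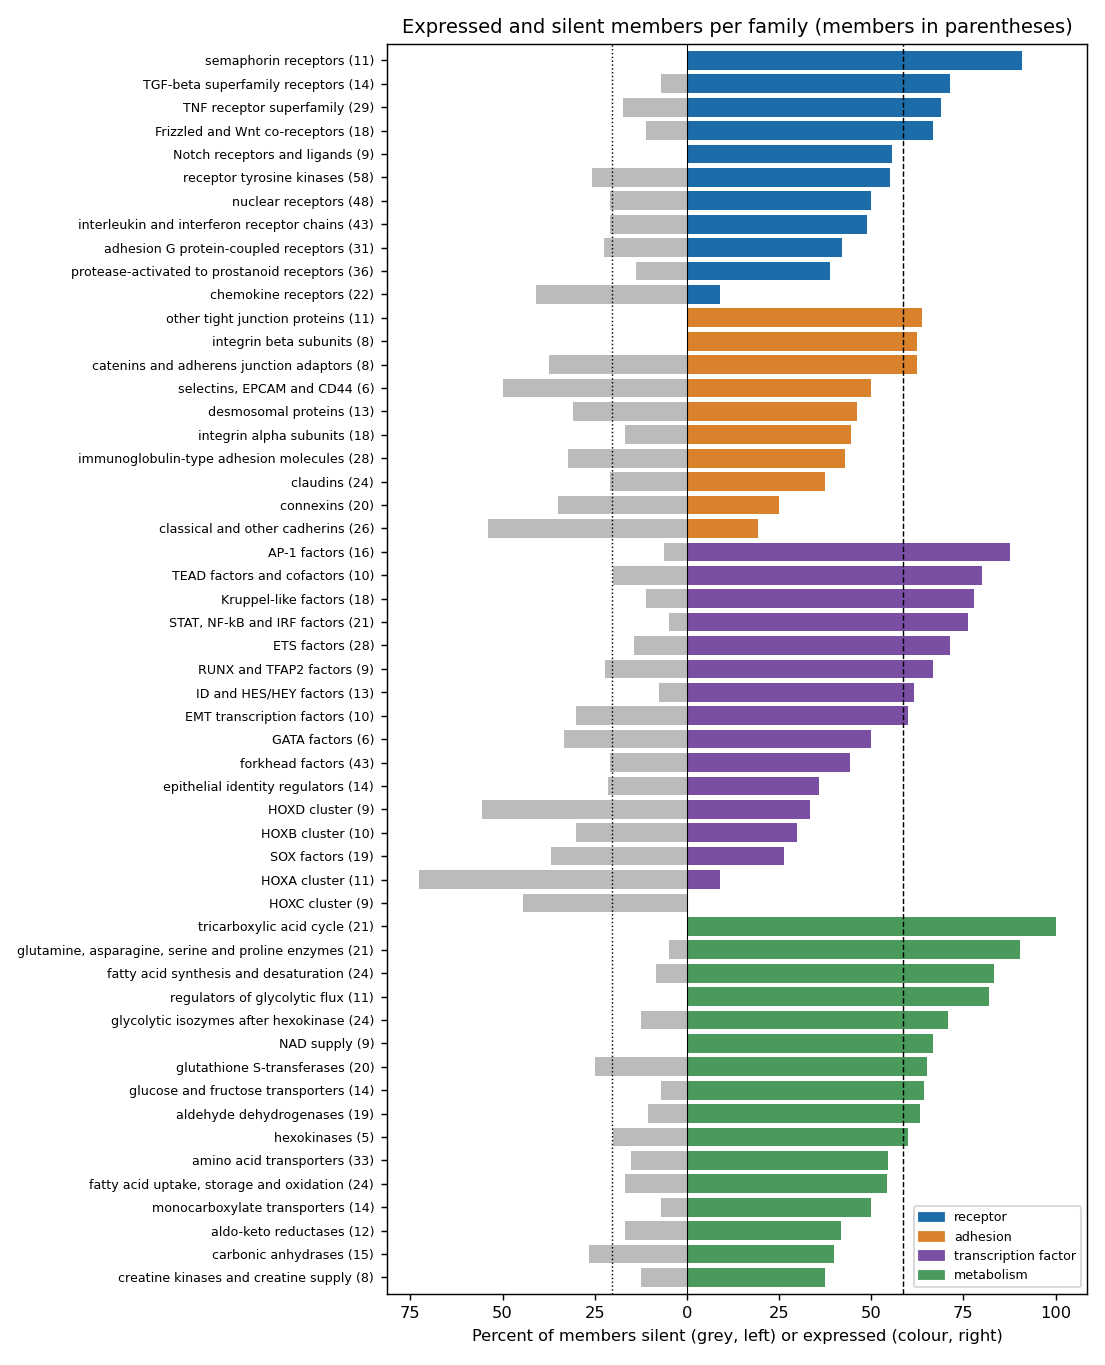
Percent of members expressed (coloured bars, right) and silent (grey bars, left) in the families of the 4 classes, with the number of members in parentheses; the dashed and dotted lines are the shares over all protein-coding genes, 58.5% expressed and 20.4% silent. The tricarboxylic acid cycle is at 100%, and the HOXC cluster at 0%.

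Receptor tyrosine kinases carry growth factor signals across the membrane, and here 32 of 58 were expressed and 15 silent (19 without replicate 1), close to the background. AXL alone held 59.7% of the summed TPM of the family. EPHA2, an ephrin receptor, came next at 188, 182 and 173 TPM. MET, the hepatocyte growth factor receptor, was at 92.9, 90.7 and 90.2 TPM, and its range overlapped that of EGFR. Of the EGFR family, ERBB2 was at 30.9, 31.3 and 29.7 TPM, ERBB3 was lower at 3.41, 3.05 and 3.27 TPM and ERBB4 was silent with 7, 4 and 4 reads. The relatives of AXL were far below it: MERTK at 8.97 ± 0.665 TPM and TYRO3 at 7.5 ± 0.395 TPM. INSR (31.3 ± 1.24 TPM), IGF1R (24.8 ± 1.33 TPM), FGFR1 (29.5 ± 0.945 TPM) and ROR1 (24.6 ± 0.448 TPM), receptors for insulin, insulin-like and fibroblast growth factors and a Wnt, lay between 24.6 and 31.3 TPM in mean. KIT, FLT3, RET and PDGFRA were silent.

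Nuclear receptors are ligand-regulated transcription factors, of which 24 of 48 were expressed and 10 silent (14 without replicate 1). NR2F2, also known as COUP-TFII, was highest at 103, 101 and 96.7 TPM, followed by NR3C1, the glucocorticoid receptor, at 88.1, 81.4 and 80.7 TPM. NR2F6, RXRB, NR1H2 and PPARD then lay between 71.7 and 74.4 TPM in mean, with overlapping ranges between neighbours in that order. RXRB serves as a partner of many other nuclear receptors, and NR1H2 encodes the sterol sensor LXR-beta. The vitamin D receptor VDR was at 7.32 ± 0.532 TPM. NR0B1, NR0B2 and NR1H4 had 0 reads in every library, and NR3C2, the mineralocorticoid receptor, was at 3.92 ± 0.171 TPM.

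Among cytokine receptors OSMR and IL6ST stood highest. OSMR, the oncostatin M receptor chain, was at 129.6, 113 and 122 TPM and IL6ST, the shared signalling chain gp130, at 121, 118 and 118 TPM, with overlapping ranges. LIFR, a partner of IL6ST, was at 30.1, 30.5 and 29.6 TPM, while IL6R, the chain that binds interleukin 6, was at 0.605, 0.582 and 0.79 TPM. Of interleukin and interferon receptor chains 21 of 43 were expressed and 9 silent (13 without replicate 1). Interferon receptor chains IFNGR2 (65.3 ± 4.53 TPM), IFNAR1 (33 ± 2 TPM) and IFNGR1 (26.4 ± 1.43 TPM) were expressed. IFNAR2 (0.894 TPM) and IL10RB (1.28 TPM) share 44.2% and 38.1% of their exon length with another gene on the same strand, so their levels may be underestimated. IL3RA, CSF2RA and IL9R had 0 reads in every library, but they lie in the pseudoautosomal regions, which the reference holds in duplicate. All 17 protein-coding genes annotated there had 0 reads, including CD99, SLC25A6 and VAMP7, which nearly all cells express, so 0 reads does not mark these genes as silent. Those of them on a family list remain in that family's silent count, which is too high by that much if they are expressed.

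In the tumour necrosis factor receptor superfamily 20 of 29 were expressed and 5 silent. TNFRSF21 was at 161, 152 and 155 TPM. TNFRSF12A, the TWEAK receptor, was at 144, 141 and 138 TPM and TNFRSF10B, the death receptor for TRAIL, at 144, 137 and 133 TPM, with ranges that overlapped. CD40 reached 43.1 ± 2.53 TPM and FAS 2.55 ± 0.0709 TPM. TNFRSF6B was silent, but all of its exon length lies under another annotated gene on the same strand.

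Chemokine receptors were the receptor family with the smallest share expressed: 2 of 22 were expressed and 9 silent (12 without replicate 1). CCR10 was at 1.75, 1.72 and 1.76 TPM and CXCR4, the receptor for CXCL12, at 1.09, 1.24 and 1.23 TPM. ACKR3, the other CXCL12 receptor, lay just outside the rule with 0.953, 1.94 and 1.54 TPM. CXCR1 and CXCR2, receptors for interleukin 8, were silent, each with 1, 0 and 0 reads. At a threshold of 0.5 TPM 7 of the 22 would count as expressed, and at 5 TPM none.

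Receptors of the developmental pathways lay on both sides of the 58.5% of all protein-coding genes expressed. In the transforming growth factor beta superfamily 10 of 14 were expressed and 1 silent (2 without replicate 1), with TGFBR2 at 114, 103 and 106 TPM and TGFBR1 at 82.4, 81.6 and 77.4 TPM, the pair that forms the TGF-beta receptor. Of Notch receptors and ligands 5 of 9 were expressed and 0 silent (1 without replicate 1): NOTCH2 was at 131, 124 and 121 TPM, NOTCH1 at 53.3 ± 2.66 TPM and the ligand JAG1 at 32.8 ± 1.9 TPM, whereas NOTCH4 and the delta-like ligands were under 1 TPM on average. Of Frizzled receptors and Wnt co-receptors 12 of 18 were expressed and 2 silent (3 without replicate 1). LRP5, a Wnt co-receptor, was at 173, 155 and 158 TPM, above its relative LRP6 at 21.1, 20.2 and 19.4 TPM. FZD2 (99.9 ± 6.14 TPM) and FZD7 (85.5 ± 4.46 TPM) were the highest Frizzleds. SMO, the Hedgehog signal transducer, was silent with 2, 0 and 0 reads. Semaphorin receptors had the largest share of the receptor families, in that 10 of 11 were expressed and 0 silent, led by PLXNB2 at 157, 146 and 140.3 TPM.

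G protein-coupled receptors of small ligands and proteases are read beside the same 58.5%. Of the protease-activated, lysophospholipid, adrenergic, adenosine and prostanoid receptors 14 of 36 were expressed and 5 silent (9 without replicate 1). F2RL1, protease-activated receptor 2, was at 141, 134 and 133 TPM and F2R, the thrombin receptor, at 48.8, 46 and 47.3 TPM. ADORA2B, an adenosine receptor, reached 74.6, 72.8 and 75.6 TPM. ADRB3 and ADORA3 had 0 reads in every library. Of adhesion G protein-coupled receptors 13 of 31 were expressed and 7 silent (13 without replicate 1), with ADGRE5 (CD97) at 154, 145 and 146 TPM and ADGRF5 at 94.8, 89.8 and 92 TPM.

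Integrins are pairs of an alpha and a beta subunit that bind the matrix. Of alpha subunits 8 of 18 were expressed and 3 silent (6 without replicate 1). ITGA3, a laminin-binding subunit, was at 615, 551 and 554 TPM and held 57.6% of the summed alpha TPM. After ITGA6, the collagen-binding ITGA2 at 87.2, 77.7 and 82.4 TPM and ITGAV at 80.7, 73.7 and 76.9 TPM had overlapping ranges. The fibronectin-binding ITGA5 was at 55.8, 48 and 50.6 TPM. Among beta subunits 5 of 8 were expressed and 0 silent (1 without replicate 1). ITGB1, the partner of most alpha subunits, was at 399, 363 and 374 TPM, above ITGB4, and ITGB5 was at 116, 108 and 108 TPM. ITGB3 came to 11.3, 7.61 and 10.3 TPM, but 51.6% of its exon length lies under another gene on the same strand. Subunits known from leukocytes differed among themselves. ITGAE (6.51, 6.47 and 5.77 TPM) and ITGB2 (1.88, 2.08 and 1.92 TPM) were expressed, whereas ITGAM, ITGAD and ITGA4 were silent, each with 3 reads or fewer in every library.

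Cadherins were the adhesion family with the smallest share expressed: 5 of 26 were expressed and 14 silent. CLSTN1, a calsyntenin, was at 123, 115 and 114 TPM. CDH4, R-cadherin, was highest of the classical cadherins at 47.8, 46.5 and 45.2 TPM, and CDH11 was at 3.8, 3.38 and 3.87 TPM. The remaining expressed members were CDH24 (13.9 ± 0.808 TPM) and CLSTN3 (8.16 ± 0.19 TPM). CDH3, P-cadherin, was at 0.237, 0.141 and 0.259 TPM. Of the catenins and adaptors that bind cadherins inside the cell 5 of 8 were expressed and 3 silent, the silent ones being CTNNA2, CTNNA3 and CTNND2. CTNNA1, alpha-catenin, was at 255, 244 and 234 TPM and CTNNB1, beta-catenin, at 171, 168 and 162 TPM. CTNND1, p120-catenin, was lower at 7.61, 7.01 and 6.6 TPM; RefSeq lists a readthrough gene with TMX2 there, so its reads may be split.

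Of the proteins of desmosomes, which anchor keratin filaments at cell contacts, 6 of 13 were expressed and 4 silent (6 without replicate 1). DSG2 was at 98.3, 90.9 and 95.2 TPM and DSP, desmoplakin, at 101, 90.7 and 91 TPM, with overlapping ranges, and JUP, plakoglobin, at 71.3, 61.5 and 63.1 TPM. The desmocollin DSC2 was at 0.797, 0.822 and 0.766 TPM, and the desmogleins and desmocollin of stratified epithelia, DSG1, DSG3 and DSC1, were silent. Of claudins, the membrane proteins of tight junctions, 9 of 24 were expressed and 5 silent (6 without replicate 1). CLDN4 was at 96.3, 86.1 and 85.9 TPM, CLDN7 at 36.3, 31.9 and 32.9 TPM and CLDN3 at 10.2, 8.56 and 8.69 TPM, and CLDN1 was lower at 4.7, 4.21 and 4.75 TPM. Low CLDN3, CLDN4 and CLDN7 are a defining feature of the claudin-low tumour class. Here all of them were expressed, and CLDN4 and CLDN7 exceeded EPCAM. No other line or tumour was measured, so these levels cannot say whether the claudins are low in the sense of that class. The other tight junction genes included OCLN, occludin, at 5.11, 5.19 and 4.97 TPM and TJP1, the scaffold ZO-1, at 46.8, 43.9 and 44.2 TPM. F11R (10.7 TPM) lies under another gene on the same strand over 36.6% of its exons.

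Of immunoglobulin-type adhesion molecules 12 of 28 were expressed and 9 silent (10 without replicate 1). ALCAM (CD166) was at 161, 156 and 162 TPM, PVR, the poliovirus receptor, at 161, 157 and 143 TPM and NECTIN2 at 157, 146 and 144 TPM, all overlapping. L1CAM, a neural adhesion molecule, was at 93.9, 82.7 and 86.3 TPM. ICAM1, which binds leukocyte integrins, was at 77.6, 56.9 and 68.9 TPM, lowest in replicate 2. CD44, the hyaluronan receptor, reached 256, 227 and 243 TPM, while EPCAM, an epithelial adhesion molecule, was at 13.3, 12.2 and 11.6 TPM. The selectins SELE and SELP were silent. Of connexins, the gap junction channels, 5 of 20 were expressed and 7 silent (10 without replicate 1), with GJB2 at 23.4, 23.1 and 25.9 TPM and GJA1, connexin 43, at 7.49, 9.51 and 7.87 TPM.

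Regulators of the epithelial to mesenchymal transition differed widely in level, and 6 of 10 were expressed and 3 silent (4 without replicate 1). ZEB1, a repressor of CDH1, was at 28.2, 27.6 and 27.2 TPM and SNAI2 at 24.9, 25.3 and 24.9 TPM. SNAI1 was lower at 3.11, 2.53 and 2.21 TPM and ZEB2 at 2, 1.63 and 1.83 TPM. TWIST2, like TWIST1, had 0 reads in every library. Of regulators of epithelial identity 5 of 14 were expressed and 3 silent (6 without replicate 1). EHF, an epithelial ETS factor, was at 61.1, 55.5 and 57.6 TPM and KLF5 at 29.4, 24.5 and 26.4 TPM, while GRHL2 (0.133, 0 and 0 TPM) and ESRP1, an epithelial splicing factor (0.138, 0.231 and 0.128 TPM), were below 1 TPM. OVOL2 had 0, 1 and 0 reads. ESRP2, the paralog of ESRP1, was at 8.05, 7.77 and 7.15 TPM.

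AP-1 factors, dimers that answer growth and stress signals, had the largest share of any transcription factor family, where 14 of 16 were expressed and 1 silent. JUND was at 377, 351 and 361 TPM, FOSL1 (FRA-1) at 294, 279 and 272 TPM, FOSL2 at 181, 176 and 171 TPM and JUN at 135, 127 and 126 TPM, and none of these ranges overlapped. FOS was far below them at 4.53, 4.72 and 5.03 TPM and FOSB at 1.48, 1.47 and 1.28 TPM. MAF was the 1 silent member. TEAD factors and cofactors act with YAP1 downstream of the Hippo pathway, and 8 of 10 were expressed and 2 silent. TEAD1 was at 126, 128 and 119.9 TPM, YAP1 at 119, 115 and 109 TPM and its paralog WWTR1 (TAZ) at 34, 33 and 30.4 TPM.

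Of ETS factors 20 of 28 were expressed and 4 silent (7 without replicate 1). ETS1 was at 94.6, 92.6 and 88.6 TPM, ELK3 at 84.4, 86.5 and 83 TPM and ELK1 at 81.5, 78.6 and 81.7 TPM. SPI1, a factor of blood cells, was at 0.13, 0 and 0 TPM, and SPIB was silent. Of the STAT, NF-kB and IRF factors, which carry cytokine and inflammatory signals, 16 of 21 were expressed and 1 silent (2 without replicate 1). NFKB2 was at 102, 89.7 and 89.9 TPM, STAT3 at 86.4, 81.5 and 82.2 TPM and RELA at 79, 71.8 and 75.1 TPM. The lymphoid members STAT4 (0.645 ± 0.172 TPM), IRF4 (0.0668 ± 0.0616 TPM) and IRF8 (silent) were at the bottom of the family. Among Kruppel-like factors 14 of 18 were expressed and 2 silent, and KLF6 stood clear of the rest at 189.7, 173 and 175 TPM.

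Among factors that set cell lineage, 26.3% of SOX, 44.2% of forkhead and 50% of GATA factors were expressed. The share was 61.5% for ID and HES/HEY factors and 66.7% for RUNX and TFAP2 factors, against 58.5% of all protein-coding genes. Several of these lists are short, and their differences from that share were not tested. Of SOX factors 5 of 19 were expressed and 7 silent (8 without replicate 1): SOX9 was at 160.3, 146 and 144 TPM and held 63.5% of the family's TPM, SOX4 was at 18.5, 14.5 and 17.1 TPM, and SOX2 (0.0866 ± 0.064 TPM) and SOX10 (0.404 ± 0.179 TPM) were below 1 TPM. Of GATA factors 3 of 6 were expressed and 2 silent, with GATA6 highest at 36.8, 33.5 and 34.5 TPM, and GATA3, a luminal regulator, was at 8.42, 7.99 and 7.38 TPM. Of forkhead factors 19 of 43 were expressed and 9 silent (16 without replicate 1). FOXP4 was at 115, 109.5 and 103 TPM and FOXM1, a driver of mitotic genes, at 43.1, 44.4 and 40.6 TPM. FOXC1, a factor of basal-like breast cancer, was at 25, 24.7 and 24.7 TPM. FOXA2 (11.6 ± 1.08 TPM) was expressed although FOXA1 was not. Of RUNX and TFAP2 factors 6 of 9 were expressed and 2 silent (3 without replicate 1). RUNX2 (36 ± 2.66 TPM), its partner CBFB (33.1 ± 2.23 TPM) and RUNX1 (31.6 ± 1.75 TPM) had ranges that overlapped in that order, and RUNX3 was silent. Of ID and HES/HEY factors 8 of 13 were expressed and 1 silent (2 without replicate 1). ID1, an inhibitor of basic helix-loop-helix factors, was at 71.6, 71.2 and 67.4 TPM, while ID2 was at 0.427, 0.398 and 0.79 TPM.

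The HOX clusters record position along the body axis, and each held at most 3 expressed genes. HOXA held 1 expressed gene of 11, HOXA13 at 1.67, 1.65 and 1.81 TPM, and 8 silent ones (10 without replicate 1). HOXB held 3 of 10, led by HOXB9 at 34.3, 32.2 and 30.5 TPM, which made up 88.3% of the cluster's TPM. No HOXC gene of 9 was expressed, the highest being HOXC8 at 0.712, 1.06 and 0.856 TPM. HOXD held 3 of 9: HOXD4 at 6.25, 5.65 and 6.12 TPM, HOXD1 at 1.84, 1.9 and 2.33 TPM and HOXD3 at 1.97, 1.45 and 1.75 TPM. HOXD4 and HOXD3 overlap other genes on the same strand over 80.5% and 62.2% of their exons, so reads there may not be theirs alone or may be lost.

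Glucose enters through SLC2A transporters, of which 9 of 14 were expressed and 1 silent (3 without replicate 1). SLC2A1 (GLUT1) was at 323, 311 and 317 TPM and held 73.9% of the family, and SLC2A3 (GLUT3) was at 60.2, 52.1 and 55.5 TPM. The insulin-responsive SLC2A4 was at 1.5, 1.18 and 1.05 TPM and the fructose transporter SLC2A5 at 0.1, 0.112 and 0.0929 TPM. Of hexokinases, HK1 was at 127, 119 and 117 TPM, HK2 at 59.7, 60.4 and 55.7 TPM and HKDC1 at 28.2, 24.8 and 26 TPM. HK3 had 0 reads.

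Of the isozymes of later glycolytic steps 17 of 24 were expressed and 3 silent. After ENO1, GAPDH was at 1379, 1304 and 1333 TPM, PKM at 687, 654 and 651 TPM, LDHA at 520.2, 523 and 510.2 TPM and TPI1 at 412, 406 and 386 TPM. At the phosphofructokinase step PFKP was at 273, 258 and 257 TPM, PFKL at 70.6, 66.4 and 66.2 TPM and PFKM at 29.1, 28.8 and 27.6 TPM. ENO2, the neuronal enolase, was at 68.3, 67.8 and 66.2 TPM. ALDOA (26.2 TPM) and LDHB (23.8 TPM) overlap other genes on the same strand over 42.3% and 33.4% of their exons, so their levels may be too low. PKLR, the liver pyruvate kinase, and the testis form PGK2 were not expressed.

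Lactate leaves cells through monocarboxylate transporters, of which 7 of 14 were expressed and 1 silent. SLC16A3 (MCT4) was at 149, 142 and 138 TPM. SLC16A1 (MCT1) missed the rule, with 1.01, 0.731 and 0.726 TPM and 40, 31 and 31 reads. Among regulators of glycolytic flux, PDP1, a phosphatase that activates pyruvate dehydrogenase, was at 145, 133 and 134 TPM. The kinases that oppose it were lower: PDK3 at 22.7 ± 0.698 TPM, PDK2 at 13.1 ± 0.978 TPM, PDK1 at 9.98 ± 0.418 TPM and PDK4 at 4.4 ± 0.522 TPM.

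All 21 genes of the tricarboxylic acid cycle were expressed, from SDHA at 8.16 ± 0.298 TPM to MDH2, mitochondrial malate dehydrogenase, at 186 ± 5.43 TPM. SDHA has pseudogenes that may take part of its reads. OGDH was at 136, 126 and 125 TPM, and FH, fumarase, at 94.1, 99.6 and 95.3 TPM. Cytosolic IDH1 (39.8 ± 1.66 TPM) and mitochondrial IDH2 (34.3 ± 2.47 TPM) were both expressed.

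In amino acid supply, 18 of 33 were expressed and 5 silent (8 without replicate 1) among the transporters. SLC7A5 (LAT1) was at 427, 427 and 391 TPM and its heavy chain SLC3A2 at 174, 168 and 158 TPM. SLC1A5, which takes up glutamine, was at 251, 235 and 242 TPM, and SLC7A11, the cystine carrier, at 39.2, 40.0 and 37.4 TPM. Of the enzymes of glutamine, asparagine, serine and proline 19 of 21 were expressed and 1 silent (2 without replicate 1). In the serine pathway the second enzyme PSAT1 was at 205, 193 and 207 TPM and PSPH at 47.3 ± 1.39 TPM, but PHGDH, the first enzyme, was at 1.15, 1.16 and 1.05 TPM, just above the threshold. ASNS (4.5 TPM) overlaps another gene on the same strand over 44.6% of its exons.

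Of genes of fatty acid synthesis 20 of 24 were expressed and 2 silent. SCD, the delta-9 desaturase, was at 1065, 948 and 995 TPM, FASN, fatty acid synthase, at 594, 565 and 519.7 TPM and ACLY, which makes cytosolic acetyl-CoA, at 285, 279 and 274 TPM. For SCD the lowest value was in replicate 2 and for FASN in replicate 3. Of genes of fatty acid uptake, storage and oxidation 13 of 24 were expressed and 4 silent. PLIN3, a lipid droplet coat protein, was at 279, 260.3 and 257 TPM and HADHA, of mitochondrial beta-oxidation, at 157, 149.5 and 147 TPM. CPT1A, the gate of fatty acid entry to mitochondria, was at 39.1, 38.8 and 37.6 TPM. The scavenger receptor CD36 was silent with 5, 6 and 2 reads.

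Of the detoxifying glutathione S-transferases 13 of 20 were expressed and 5 silent, with GSTP1 at 414, 386 and 388 TPM and GSTO1 at 259.8, 242 and 238 TPM. GSTT2 and GSTT2B are near-identical copies, listed at 0 reads and at 3.42 TPM, and their reads cannot be told apart with certainty. Aldo-keto reductases were led by AKR1B1 (aldose reductase) at 157, 149 and 150.3 TPM. Among aldehyde dehydrogenases ALDH18A1, of proline synthesis, was at 115, 109.9 and 111 TPM, ALDH1A3 was at 1.82, 2.21 and 2.41 TPM and ALDH1A1 was silent with 0, 0 and 1 reads. CA12 (16.3, 12.6 and 14.1 TPM) and CA9 (7.25, 5.63 and 7.89 TPM), carbonic anhydrases of the cell surface, were lowest in replicate 2. For the supply of NAD, NAMPT, the rate-limiting salvage enzyme, was at 158, 145 and 151 TPM and held 77.9% of the list. CKB, brain creatine kinase, was at 78.2, 78.3 and 77.3 TPM, and CKM, the muscle form, at 0.244, 0.151 and 0.15 TPM.

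Outside these classes, S100 proteins and annexins, calcium-binding proteins of the membrane and cytoskeleton, included several very abundant members. S100A11 was at 1062, 968 and 1018 TPM and S100A10 at 760.0, 709 and 754 TPM, while S100A8 and S100A7 had 0 reads. ANXA5 was at 535, 501 and 523 TPM, ANXA2, the partner of S100A10, at 338, 330.3 and 332 TPM and ANXA1 at 334, 327 and 312 TPM. Of 20 type II keratins 3 were expressed, KRT7 at 264, 245 and 244 TPM, KRT8, and KRT80 at 142, 136 and 131 TPM, and 14 were silent (17 without replicate 1). Of 17 type I keratins 4 were expressed.

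Genes of growth arrest were measured with the neighbourhood of CDKN2A, which the line is known to lack. CDKN2A and CDKN2B each had 1, 0 and 0 reads. The 10 listed genes from HACD4 to ELAVL2 had 20 reads in 6 genes in replicate 1 and 0 reads in replicates 2 and 3. MLLT3 (6.01, 5.83 and 6.69 TPM) and FOCAD (2.56, 2.63 and 2.14 TPM), which lie near them, were expressed. Outside that region, CDKN1A (p21) was at 118, 113 and 109 TPM, CDKN1B (p27) at 53.2, 51 and 51.9 TPM and RB1 at 39.7, 40.5 and 35.4 TPM. In the list of kinase inhibitors and tumour suppressors 14 of 16 genes were expressed, and the 2 silent ones were CDKN2A and CDKN2B.

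The genes targeted in the other groups were both expressed in control cells. SIRT1, an NAD-dependent deacetylase, was at 24.6, 24.8 and 24.5 TPM and IGF2BP2, an RNA-binding protein, at 90.3, 86.6 and 85.2 TPM.

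Over 10493 protein-coding genes with a mean of at least 100 normalised counts, the median coefficient of variation (CV, the SD as a percent of the mean) was 3.79%, where counting noise alone would give a median of 2.64% over 3 libraries. The common biological CV, edgeR's estimate of the spread beyond counting, was 3.02%. By a chi-square index of dispersion of the whole reads against the Poisson expectation, 1216 genes (11.6%) varied beyond counting noise at a Benjamini-Hochberg adjusted p under 0.05. The share of genes called rose with level, from 2.10% of genes with a mean of 100 to 300 counts to 40.6% of those over 3000. A call therefore depends in part on how deeply a gene was counted. A CV over 10% was found for 577 genes, and over 20% for 9.

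**Figure D5:**
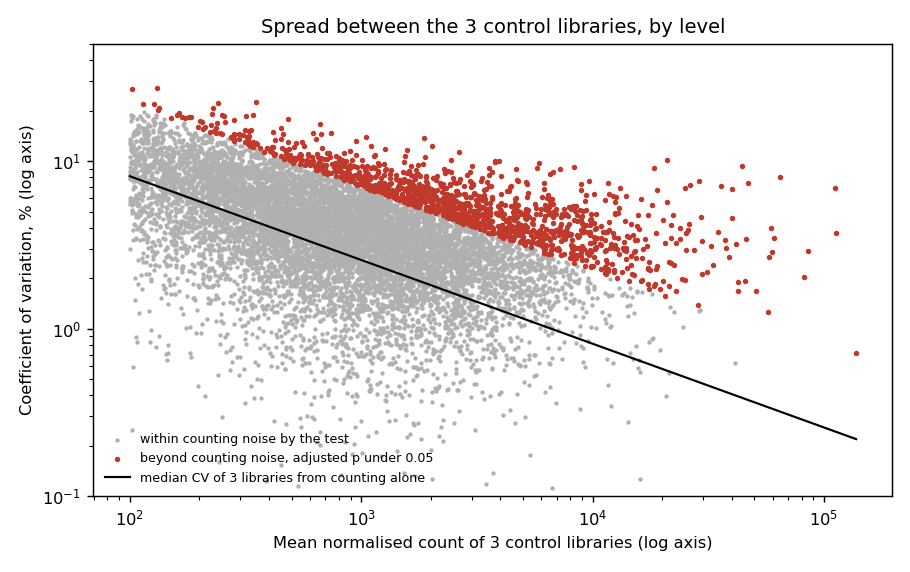
CV of the normalised counts over the 3 control libraries against their mean, both on log axes, for 10493 protein-coding genes; red points are the 1216 beyond counting noise and the line is the median CV of 3 libraries that counting alone gives at each level. The median CV was 6.83% against an expected 5.94% for means of 100 to 300 counts and 2.55% against 1.06% for means over 3000, where most genes lie above the line.

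Replicate 2 differed most from the others among well-counted genes. Compared pairwise, 320 genes differed beyond counting noise between replicates 1 and 3, 833 between 1 and 2, and 781 between 2 and 3, so none of the pairs is a library deposited in duplicate. Of the 1216 genes, replicate 2 lay farthest from the middle value in 618 (50.8%), replicate 1 in 305 and replicate 3 in 293. Replicate 2 also had the largest depth and the smallest mitochondrial share of the 3 libraries, and the part of either in the spread was not tested.

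Of 509 family members tested, 82 (16.1%) varied beyond counting noise, against 11.6% of all genes tested, and replicate 2 was farthest from the middle in 45 of them. ICAM1 had 2046, 1572 and 1979 normalised counts (CV 13.8%). ITGB3 had 353, 249 and 350.1 normalised counts (CV 18.6%), and SLC1A3, a glutamate transporter, 352, 264 and 305 (CV 14.4%). JUNB (995, 812 and 931 normalised counts) and SOX4 (769.9, 633 and 777 normalised counts) were likewise lowest in replicate 2. Highest in replicate 2 were MST1R, the RON receptor, with 571, 689 and 637 normalised counts, and LMNB1, lamin B1, with 2156, 2466 and 2249. By class, 15 of 58 adhesion genes (25.9%) and 31 of 160 metabolic genes (19.4%) varied beyond counting noise, as did 12 of 47 genes outside the 4 classes (25.5%), 15 of 138 receptors (10.9%) and 9 of 106 transcription factors (8.49%). The share over all genes tested was 11.6%, close to that of receptors, and differences between classes were not tested. Median levels, in the same order, were 1433, 1317, 2290, 888 and 1017 normalised counts, against 851 over all genes tested.

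The 10 genes with the largest CVs had means of 102 to 353 normalised counts. PCDHGC3, a protocadherin, had 115, 106 and 173 normalised counts (CV 27.4%) and C1orf56 127, 72.8 and 106 (CV 26.9%). PCDHGC3 shares 40.2% of its exon length with another gene on the same strand, so its reads may not be its alone or may be lost. C3, complement component 3, had 417, 264 and 377 normalised counts and was lowest in replicate 2. MCM8, a helicase of DNA repair, had 207, 303 and 214 and was highest there. CXCL1, a chemokine, had 143, 104 and 96.4 normalised counts, highest in replicate 1. PBX4, ABCG1, SPACA9, HMGN3 and ROBO1 completed the 10, with CVs of 19.7% to 21.8%. At the other end, BCR (1917, 1916 and 1916 normalised counts), OTUD7B, DHX36, KMT2A, GADD45A, CREB1, UIMC1, SEMA3B, HIF1AN and NFIX had CVs of 0.0238% to 0.0924%, below the Poisson SD of 1.39% to 3.50% of the mean at their levels. These 10 were picked as the lowest of 10493, and such values are given as a description of these libraries.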

How the data were processed

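Gene-level RNA sequencing values of the 3 control libraries were used. The deposited signal holds gene counts after division by a library's size factor, made by the authors, for 60649 Ensembl gene IDs, of which 60507 had a symbol and 58381 matched GENCODE 29. Per the submitters' processing notes, the build was GRCh38.p13 and the tools include STAR, DESeq2 and CASAVA, with no versions. With annotation and strand setting not given in the sources used here, antisense pairs cannot be told apart. The values were whole multiples of 1 step in 100% of cases (tolerance 0.001 reads), so whole reads were recovered. Columns were matched to replicates by name. As a check, the log2 ratios that the authors deposited per library were compared: they matched the column of the same number with an SD of at most 0.0002982 over 10382 genes, and any other with at least 0.09769. The 9 knockdown columns, and a table of 12 columns without names, were not used.

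Reads were divided by the union of GENCODE 29 exons and scaled to TPM over all genes. Symbols came from a gene name table, and 1144 of 1146 listed genes matched (not ADGRF2P and GSTT1). The members and lists were chosen with earlier results of these data known. Genes named are the 20 nuclear protein-coding genes of highest TPM, all markers, SIRT1 and IGF2BP2, family members that were expressed or silent or among the first 6, the 5 highest long non-coding genes, and the 10 highest and lowest CVs; other names were chosen after their values were seen. CVs, the chi-square test and edgeR's common dispersion used genes with a mean of at least 100 normalised counts, and both scripts were tested on simulated data. No groups were compared. The limit of 3 reads covers counting error only. Tools were Python 3.11.15, pandas 2.3.3, scipy 1.17.1, R 4.3.3, edgeR 4.0.16 and, for an alternative scaling, DESeq2 1.42.0. Alternatives are given in the closing section. Values of some single genes are not reported here, although the genes stay in the counts of their lists.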

Additional observations from a re-analysis of the deposited data

How the results depend on the processing

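The count of expressed protein-coding genes stayed within 1.5 times of 11610 under the 10 alternatives tried, from 9456 at 5 TPM to 12331 at 0.5 TPM, with 12143 when the per-million total ran over protein-coding genes only. The silent count depended on its threshold: it was 2653 at 0.05 TPM and 1930 for genes with 0 reads in every library, and leaving out a library gave 4184 to 5315, the latter without replicate 1. Without mitochondrial genes the 10 genes with the most reads took 5.87% of reads. The median CV was 4.51% with a minimum mean of 10 counts and 2.86% with a minimum of 1000; leaving out a library gave 2.86% to 3.26%, lower partly because 2 libraries remain. The number of genes beyond counting noise was 320 to 833 when a library was left out (320 without replicate 2), where fewer samples also lower the count. The common biological CV was 2.36% without replicate 2 and up to 3.37% without another library. Of 60 family counts, 2 moved by more than 1.5 times at 0.5 TPM, 15 at 5 TPM, and none with the longest transcript as length or with a library left out. No paired analysis was possible because only the control group was used and no groups were compared. Depth of 21002454 to 21570882 reads per library limits the calls of silent genes, where a few reads decide.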

Other observations

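Long non-coding RNAs were led by MALAT1, a nuclear-speckle RNA, at 2278, 2171 and 2279.7 TPM. NORAD, which binds Pumilio proteins, was at 318, 307 and 294 TPM, with a CV of 0.584%. NEAT1, the scaffold of paraspeckles, was at 149.9, 149 and 164 TPM and highest in replicate 3. The snoRNA host genes SNHG29 and SNHG8 were at 211 ± 10.8 and 157 ± 4.32 TPM.

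Small RNAs took 1.87%, 1.89% and 1.74% of reads as the miscellaneous class, nearly all in the signal recognition particle RNA gene RN7SL1, and 0.632%, 0.876% and 0.984% as small nuclear RNAs. The U4 genes RNU4-2 and RNU4-1, chosen after their values were seen, had 60849, 84604 and 97261 and 43101, 60348 and 65779 normalised counts. Both were lowest in replicate 1, the library with the most genes at 1 read, and the link between these was not tested. Summed TPM of histone genes was 16850, 17325 and 16054.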
